A study of Drosophila melanogaster with 60 samples.

Results

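Phosphoenolpyruvate carboxykinase (Pepck, CG17725, listed by RefSeq as Pepck1) was measured by 1 probe, DAC038M03, of the 15744 probes on the array. It had a value on all 60 arrays, in 20 groups of genotype, sex and hour with 3 arrays each. The probe was chosen on the genotype difference in females: of the 133 probes with a value on every female array, 1 sign at all 5 time points and a joint test past the threshold, it had the most negative tud minus wild type mean (-1.72). The next probe, DAC024D23, had -1.33. The female genotype difference, both sex differences and the changes over time within the female series rest on the arrays of that choice and are therefore given as descriptions, with no test. Tests are given for the genotype difference in males and the changes over time within the male series, whose arrays the choice did not compare. The gene and these tests were nevertheless chosen with earlier results of these data known.

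The groups were male and female tud progeny and male and female wild type, and RNA of whole animals was taken in each of them at 0, 24, 48, 72 and 96 h from the formation of the puparium. The tud progeny were the offspring of mothers homozygous for the maternal-effect mutation tudor (tud), which also carried bw and sp, and of fathers with y, w and a UBI-GFP transgene on the X chromosome. Such progeny form no germline, and the female tud progeny carried the GFP transgene while the males did not. The wild type was the Canton S strain, and the 2 genotypes therefore differ in strain and in the genotype of the mother as well as in the germline. Each RNA came from a pool of pupae and was compared on a two-colour array with 1 common reference, made from Canton S pupae of both sexes and all stages. Levels are given as the log2 ratio of the sample to that reference, so 0 is the level of the reference and a difference of 1 is a 2-fold difference. The labels do not say that replicates came from separate cultures, and the p-values measure only the spread between these arrays, which may be technical. Precision is limited by the 3 arrays in a group. The titles place 3 arrays in tud females at 48 h, but the characteristics of replicate 1 there describe the reference and those of replicate 2 give another hour.

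Pepck converts oxaloacetate to phosphoenolpyruvate, the committed step by which carbon from amino acids and citric acid cycle intermediates is returned to glucose, and the same reaction supplies glycerol 3-phosphate for triglyceride synthesis. Its transcript is known to respond to feeding and fasting, and in insects the fat body, which combines functions of liver and adipose tissue, is a main site of this metabolism. Pupae do not feed, and metamorphosis is carried out on stores laid down by the larva. A second gene, Pepck2 (CG10924), neighbours Pepck1 in the RefSeq annotation. No probe of the names used here was paired with Pepck2, and cross-hybridization between the pair was not tested.

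Over the whole series Pepck was lowest in tud females, then tud males, then wild type males, and highest in wild type females. In tud females the 15 arrays ran from -1.58 to -0.56 with a median of -0.74, and 0 of them were above the reference. In tud males they ran from -1.40 to 0.23 with a median of -0.37, and 4 were above the reference. In wild type males the values lay between -0.49 and 1.09 with a median of 0.39, and 11 of the 15 arrays were above the reference. In wild type females they lay between 0.10 and 1.42 with a median of 0.89, and all 15 were above it. The ranges of tud females and wild type females did not overlap, and those of tud males and wild type males did.

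Among the 20 group means the highest was wild type females at 24 h, 1.33 ± 0.08 (SD, n = 3), and the lowest tud females at 72 h, -1.02 ± 0.10 (SD, n = 3). The highest 9 means were all of wild type groups and the lowest 8 all of tud groups, with wild type males at 96 h, -0.25 ± 0.22 (SD, n = 3), ranking 12 from the top. The order within this list is loose. Of the 19 gaps between neighbouring means, 17 were between groups whose arrays overlapped. The exceptions were the gap of 0.31 below wild type females at 24 h and the gap of 0.41 between tud males at 48 h, -0.28 ± 0.21 (SD, n = 3), and tud females at 24 h, -0.70 ± 0.04 (SD, n = 3).

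**Figure D1:**
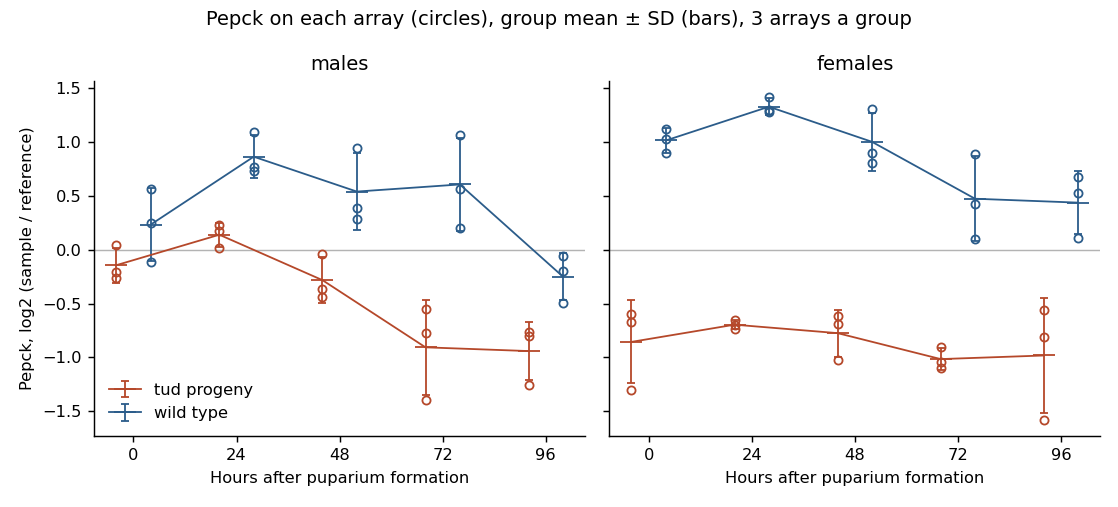
Pepck as the log2 ratio of sample to reference (y axis) against hours after puparium formation (x axis) in males (left panel) and females (right panel), with tud progeny in red and wild type in blue. Circles are single arrays and bars are group means ± SD of 3 arrays. The points of the 2 genotypes are drawn side by side at each hour, and they overlap only in males at 0 h.

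Pepck was lower in tud males than in wild type males at all 5 time points. At 0 h the tud male arrays had -0.26, -0.21 and 0.04, against 0.24, -0.11 and 0.57 in wild type males. The 2 groups overlapped, since 1 wild type array was below the highest tud array. At 24 h the tud males had 0.02, 0.17 and 0.23, against 0.77, 1.09 and 0.73 in wild type males, with no overlap. Both groups were at their highest here, and the tud males were all above the reference at this hour alone. At 48 h the tud males had -0.44, -0.37 and -0.04, against 0.29, 0.95 and 0.39 in wild type males. At 72 h the tud males had -0.55, -1.40 and -0.78, against 0.56, 1.06 and 0.20 in wild type males. Every tud array was below the reference and every wild type array above it at 48 and at 72 h, and the second replicate was the extreme array of both genotypes at 72 h. At 96 h the tud males had -1.25, -0.77 and -0.80, against -0.06, -0.49 and -0.20 in wild type males, so that both genotypes were below the reference and still did not overlap.

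The mean over the 5 time points was -0.43 in tud males and 0.40 in wild type males, a difference of -0.83 ± 0.11 (SE), or 1.77-fold lower in tud males. In whole-animal RNA, fewer cells that express a gene and less of its RNA in each cell cannot be told apart. The moderated F test of limma on the 5 male differences together passed the threshold of an adjusted p of 0.15 (adjusted p = 3.57e-07, Benjamini-Hochberg). The male comparison called many probes, with 81.1% of the 3558 probes tested past the threshold, 2129 of them higher and 756 lower in tud males, so passing it does not set Pepck apart. The size of the difference was less common: the median over all probes was 0.22, and 7.14% of the probes had a difference as low as that of Pepck or lower. Exact permutation of genotype within each hour gave a two-sided p of 1.25e-06, where 6.25e-07 is the smallest these arrays can give.

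At single time points the male difference was -0.38 ± 0.24 (SE) at 0 h, which did not pass (limma adjusted p = 0.314, with 25.7% of probes called at that hour). It was -0.72 ± 0.24 at 24 h (adjusted p = 0.0172, 51.3% called) and -0.82 ± 0.24 at 48 h (adjusted p = 0.0128, 29.4% called). The largest male difference was that at 72 h, -1.51 ± 0.24, or 2.85-fold lower in tud males (adjusted p = 6.79e-06, 29.8% called), and at 96 h it was -0.69 ± 0.24 (adjusted p = 0.0194, 53.8% called). Pepck was therefore called at 4 of 5 hours in males. The size of the male difference depended on the hour, with a range of 1.14 between 0 h and 72 h (limma moderated F test of the change, adjusted p = 0.0699). Of all probes, 52.1% passed that test, and 39.4% had a range at least as large. The call rests on the 72 h arrays: it was lost without wild type male 72 h replicate 2 (range 0.91, adjusted p = 0.26) and without tud male 72 h replicate 2 (range 0.89, adjusted p = 0.265).

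**Figure D2:**
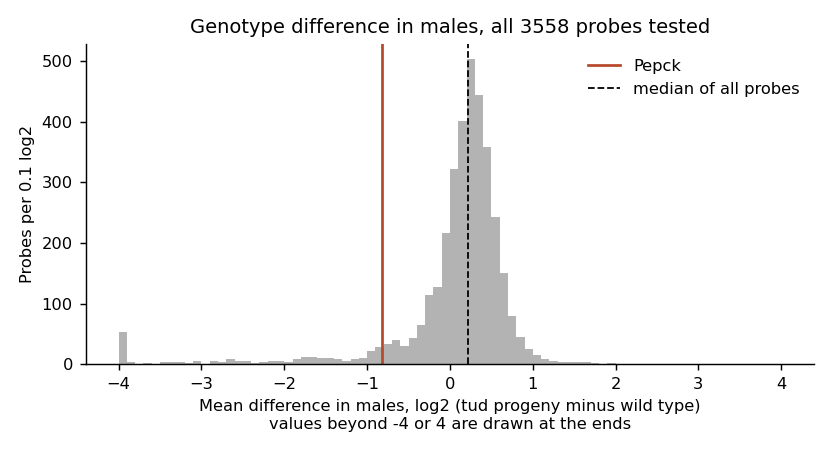
Distribution over the 3558 probes tested of the mean tud minus wild type difference in males (x axis, log2; y axis, probes per bin of 0.1). The red line marks Pepck at -0.83, to the left of the main peak, and the dashed line marks the median of all probes at 0.22.

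In females, where the probe was chosen, the 2 genotypes did not overlap at any of the 5 time points. At 0 h the tud females had -0.67, -0.60 and -1.30, against 1.03, 0.89 and 1.12 in wild type females. At 24 h they had -0.74, -0.70 and -0.65, against 1.29, 1.28 and 1.42 in wild type females. These were the tightest groups of their series, and the highest in both genotypes. At 48 h the tud females had -0.61, -0.69 and -1.02, against 0.80, 1.31 and 0.90 in wild type females. The disagreeing labels of tud females at 48 h belong to the arrays at -0.61 and -0.69, and with replicate 3 alone the genotype difference at that hour is -2.03. At 72 h they had -1.10, -0.91 and -1.04, against 0.89, 0.43 and 0.10 in wild type females. At 96 h they had -1.58, -0.56 and -0.81, against 0.11, 0.67 and 0.53 in wild type females. Every tud female array was below the reference and every wild type female array above it.

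The mean was -0.86 in tud females and 0.85 in wild type females, a difference of -1.72 ± 0.11 (SE), or 3.29-fold lower in tud females, which is the value the choice rests on. Of the 3290 probes tested in females, 56.2% passed the joint test, and nothing is read from this for Pepck. By hour the difference was -1.87, -2.02, -1.78, -1.49 and -1.42 from 0 to 96 h, each ± 0.24 (SE). It was thus greatest at 24 h in females, whereas in males it was greatest at 72 h, and at 72 h the male value (-1.51) and the female value (-1.49) were nearly the same. Whether the time course of the genotype difference differed between the sexes was not tested, because the female arrays were used in the choice.

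The sex difference in Pepck had opposite signs in the 2 genotypes, again as a description. In tud progeny the male minus female difference was 0.71, 0.84, 0.49, 0.11 and 0.04 over the hours from 0 to 96, each ± 0.24 (SE), with a mean of 0.44 ± 0.11. With tud female 48 h replicate 3 alone in its group, the value at 48 h is 0.74. The arrays of tud males and tud females did not overlap at 0, 24 and 48 h and overlapped at 72 and 96 h. In wild type it was -0.78, -0.46, -0.46, 0.13 and -0.69 over the same hours, with a mean of -0.45 ± 0.11. The arrays of wild type males and wild type females did not overlap at 0, 24 and 96 h. At 0 and 24 h every tud male array was above every tud female array, and every wild type male array was below every wild type female array.

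**Figure D3:**
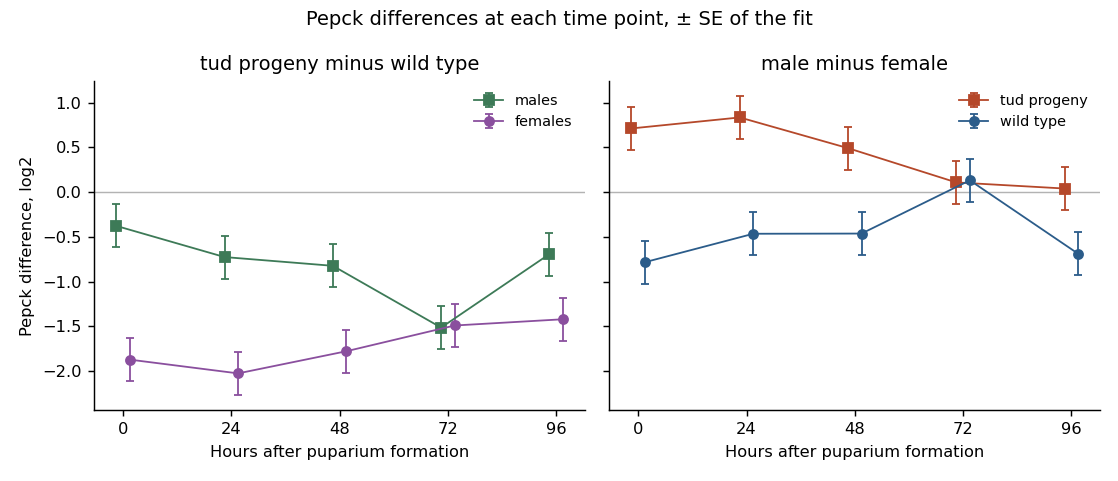
Differences in Pepck on the log2 scale (y axis) at each hour after puparium formation (x axis), with bars for the SE of the fit (0.24). The left panel gives tud progeny minus wild type in males (squares) and females (circles), all below 0. The right panel gives male minus female in tud progeny (squares), where all values are above 0, and in wild type (circles), where the value at 72 h alone is above 0.

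Pepck changed over the 5 time points in both male series, and in all 4 series the highest group mean was that at 24 h. In tud males the group means ran over a range of 1.08, with 0.14 ± 0.11 at 24 h and -0.94 ± 0.27 at 96 h (SD, n = 3 each; limma moderated F test, adjusted p = 0.000116, with 90.2% of probes called). In wild type males the range was 1.11, with 0.86 ± 0.20 at 24 h and -0.25 ± 0.22 at 96 h (adjusted p = 0.000796, 81.7% called). Both ranges were smaller than the median range over the probes tested, which was 1.43 in tud males and 1.30 in wild type males. In the female series, described without a test, the range was 0.32 in tud females, between -0.70 ± 0.04 at 24 h and -1.02 ± 0.10 at 72 h, against 0.89 in wild type females, between 1.33 ± 0.08 at 24 h and 0.44 ± 0.29 at 96 h (SD, n = 3 each). The median range over all probes was 1.48 in tud females and 1.44 in wild type females. The tud female range was 0.73 under quantile normalization, 0.20 with arrays centred on their median and 0.50 without tud female 96 h replicate 2.

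The steps between successive time points placed the changes. In tud males 1 step passed, a fall of -0.62 ± 0.24 (SE) at 72 h against 48 h (limma adjusted p = 0.0425, 42.8% of probes called at that step), with no overlap between the hours. Leaving out tud male 48 h replicate 3 took it to -0.50 (adjusted p = 0.164) and leaving out tud male 72 h replicate 2 to -0.38 (adjusted p = 0.297). The other tud male steps were 0.28 at 24 h against 0 h (adjusted p = 0.393, 45.4% called), -0.42 at 48 h against 24 h (adjusted p = 0.188, 42.8% called) and -0.03 at 96 h against 72 h (adjusted p = 0.926, 51.1% called). The step of -0.42 passed without tud male 48 h replicate 3 (-0.54, adjusted p = 0.129).

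In wild type males 2 steps passed. Pepck rose by 0.63 ± 0.24 (SE) at 24 h against 0 h (limma adjusted p = 0.0455, 38.8% called), which was lost without wild type male 0 h replicate 2 (0.46, adjusted p = 0.226) or wild type male 24 h replicate 2 (0.52, adjusted p = 0.161). It fell by 0.86 ± 0.24 at 96 h against 72 h (adjusted p = 0.00332, 52.6% called), a call kept whichever array was left out. The steps between these were -0.32 at 48 h against 24 h (adjusted p = 0.51, 17.2% called) and 0.07 at 72 h against 48 h (adjusted p = 0.92, 28.7% called).

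The steps of the female series are again a description, each with an SE of 0.24. From 0 to 96 h they were 0.16, -0.08, -0.24 and 0.03 in tud females, against 0.31, -0.33, -0.53 and -0.04 in wild type females. In tud females the arrays of all 4 pairs of successive hours overlapped. In wild type females those of 0 and 24 h did not, and the other 3 pairs did.

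Other genes of the pathways around Pepck were read from a list of 44 genes, of which 19 had a paired probe and 15 were tested in each sex. In tud males against wild type males 5 of the 15 were higher and 6 lower, with a median difference of 0.05 (0.22 over all probes). In tud females against wild type females 3 were higher and 7 lower, with a median of -0.06 (0.02 over all probes). The names come from gene lists that the study drew up on these samples, so these counts are not independent evidence of a direction. Against the shares of all probes given above, 81.1% in males and 56.2% in females, 11 and 10 of these 15 passed. The males had 3 in place of 5 higher calls without tud male 0 h replicate 3, and the females 5 in place of 3 without wild type female 48 h replicate 1. The direction of a joint call is that of its mean difference. Its adjusted p is of the 5 hourly differences together, not of that mean. None of the genes called higher had 1 sign at all 5 hours in that sex, and not all of those called lower did.

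Pepck's substrate oxaloacetate is also handled by Got1, a glutamate oxaloacetate transaminase. Got1 was lower in tud males at all 5 hours, with a mean difference of -0.71 ± 0.07 (SE; limma adjusted p = 2.28e-10). Its joint test also passed in females (adjusted p = 0.0266), with a mean difference of -0.06 ± 0.07 and no single sign over the hours. Men, the malic enzyme, had opposite mean differences in the sexes, -0.29 ± 0.10 in males (adjusted p = 0.0534) and 0.39 ± 0.10 in females (adjusted p = 8.55e-05), and the male value was -0.45 with array weights. Gpdh1, the cytosolic glycerol 3-phosphate dehydrogenase, passed the joint test in females (-0.37 ± 0.16, adjusted p = 0.00899) and in males (0.10 ± 0.17, adjusted p = 0.0297). The male mean of Gpdh1 was smaller than its SE and below the median of 0.22 over all probes, so no direction is read from it. Gpo1, the mitochondrial glycerol 3-phosphate dehydrogenase, had -0.33 ± 0.18 in males (adjusted p = 0.0883) and -0.35 ± 0.18 in females (adjusted p = 0.09). The male Gpo1 value was 0.02 after quantile normalization and no longer passed (adjusted p = 0.285), and it was -0.10 with array weights and -0.12 without wild type male 24 h replicate 1, where it still passed. The male call was also lost without wild type male 0 h replicate 1 (adjusted p = 0.172) or tud male 24 h replicate 2 (adjusted p = 0.169), and the female call without wild type female 24 h replicate 3 (adjusted p = 0.201), tud female 24 h replicate 1 (adjusted p = 0.162) or tud female 24 h replicate 3 (adjusted p = 0.276). Of the 6 genes listed for these shuttles 4 had a probe, and all 4 passed in each sex, where 81.1% of all probes passed in males and 56.2% in females. By their means 1 was higher and 3 lower in tud progeny, the higher one being Gpdh1 in males and Men in females. Men, Gpdh1 and Gpo1 did not keep 1 sign over the hours in either sex.

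Of the genes of glucose synthesis itself, G6P, the glucose-6-phosphatase, was the only one of 4 with a paired probe, and it had too few values to be tested for genotype. In glycolysis, Pgi, the phosphoglucose isomerase, was lower in tud males by 0.46 on the log2 scale (-0.46 ± 0.09, SE; limma adjusted p = 0.000117). Its female mean difference had the opposite sign, 0.16 ± 0.09 (adjusted p = 0.0556). Ldh, the lactate dehydrogenase, had -0.92 ± 0.29 in females (adjusted p = 0.111). The Ldh call was lost on leaving out any of 6 arrays: wild type female 24 h replicate 1 or 2 or 72 h replicate 1, or tud female 24 h replicate 2 or 3 or 96 h replicate 1 (adjusted p up to 0.24). In males 3 of the 4 glycolytic genes tested passed, 2 higher and 1 lower, and in females 3 of 5, 2 higher and 1 lower. Of all probes 81.1% passed in males and 56.2% in females. Of the trehalose and glycogen genes, Treh, the trehalase, and Glys, the glycogen synthase, both had lower means in tud females, with -0.41 ± 0.08 (adjusted p = 0.0028) and -0.37 ± 0.08 (adjusted p = 0.00295). Treh was lower there at all 5 hours, and Glys was not. In males 1 of these 2 passed, Glys at 0.14.

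In the citric acid cycle 2 of 3 genes tested passed in males and 0 of 3 in females, against 81.1% and 56.2% of all probes. The adjusted p of limma for these genes in females was 0.201 or higher. SdhA, the flavoprotein subunit of succinate dehydrogenase, was -0.43 ± 0.08 (SE) in males (adjusted p = 3.16e-06) and -0.25 under quantile normalization, where it still passed, and SdhB, another subunit of that enzyme, was 0.17 ± 0.08 (adjusted p = 0.0372). In the group of fasting and insulin genes, Thor, the 4E-BP repressor of translation and a target of the insulin-responsive factor foxo, was -0.81 ± 0.17 in tud females against wild type females (adjusted p = 0.000481). Its joint test also passed in males (adjusted p = 0.00428), with a mean difference of -0.02. Thor did not keep 1 sign over the hours in either sex. The lipase gene bmm, tested in males alone, had 0.05 ± 0.12 and did not pass (adjusted p = 0.236). Pepck was thus further from 0 in males than each of the 15 listed metabolic genes tested, with Got1 nearest to it.

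**Figure D4:**
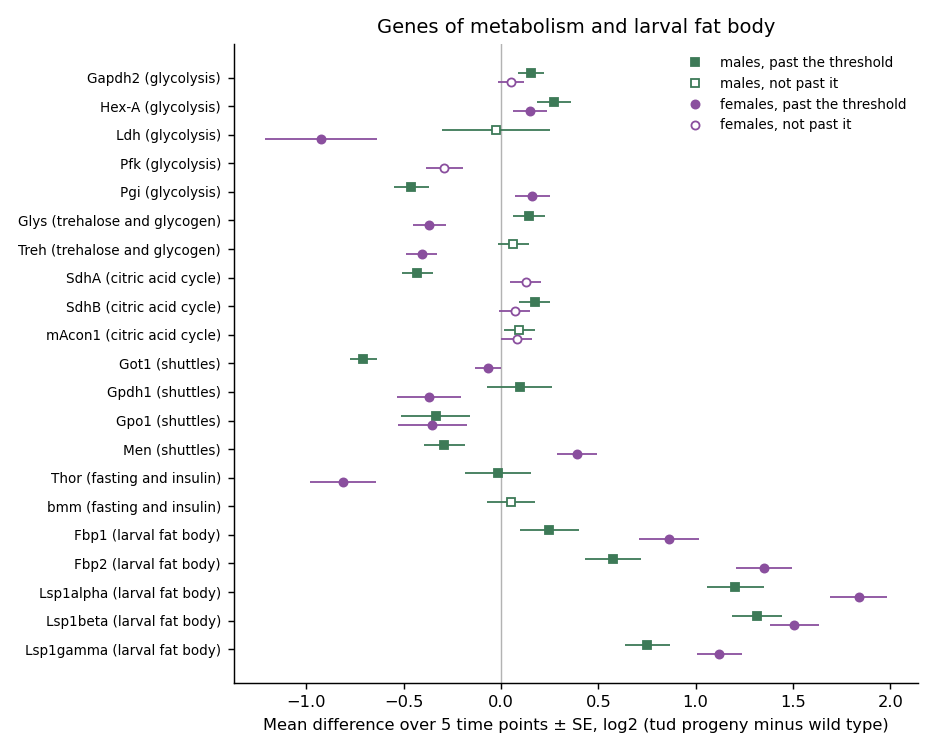
Mean tud minus wild type difference over 5 time points ± SE (x axis, log2) for the listed genes with a test, grouped by pathway (y axis), in males (green squares) and females (purple circles), with filled symbols for an adjusted p under 0.15. Got1 in males (-0.71) is the most negative male value, and the larval fat body genes lie to the right of 0 in both sexes.

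Most of the same metabolic genes ranged more widely over time than Pepck. Of those tested, 15 of 17 passed the limma time test in tud males, 16 of 16 in tud females, 16 of 16 in wild type males and 14 of 16 in wild type females, against 90.2%, 92%, 81.7% and 88.7% of all probes tested in these series. These shares are near those of all probes. The metabolic genes had median ranges of 2.66, 2.44, 2.40 and 2.58 on the log2 scale. Gpdh1 had the widest range in tud males (7.49), wild type males (7.61) and wild type females (8.04), and Gpo1 in tud females (6.85). The range of Pepck in tud females, 0.32, was below that of each of the 16 metabolic genes tested there.

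Markers of larval fat body, the tissue that is broken down through metamorphosis, had higher means in tud progeny, in contrast to Pepck. The larval serum proteins are storage proteins made by that tissue, and 5 of the 6 listed markers had a probe. All 5 passed as higher in tud males and all 5 in tud females, where 81.1% of all probes passed in males (2129 higher, 756 lower) and 56.2% in females (1034 higher, 816 lower). Lsp1alpha was higher by 1.20 ± 0.15 (SE) in males and 1.84 ± 0.15 in females, Lsp1beta by 1.32 ± 0.13 and 1.51 ± 0.13, Lsp1gamma by 0.75 ± 0.12 and 1.12 ± 0.12, and Fbp2 by 0.58 ± 0.14 and 1.35 ± 0.14. The largest limma adjusted p among the 5 was 8.21e-06, that of Fbp1 in males (0.25 ± 0.15). That mean was near the median of 0.22 over all probes in males. The difference did not keep 1 sign over the hours for Fbp1 in either sex or for Fbp2 in males. The mean log2 ratio of the 5 markers ran from -3.23 to 0.52 over the 15 arrays of tud males and from -1.83 to 0.96 in tud females, against -4.96 to -0.33 in wild type males and -4.92 to -0.21 in wild type females. In males the arrays of the genotypes were apart at 0 h (tud 0.34 to 0.52, wild type -0.53 to -0.33) and at 96 h (tud -3.23 to -1.86, wild type -4.96 to -4.31). They overlapped at 24 and 48 h, and also at 72 h, the hour of the largest male Pepck difference, where the group means were -1.85 in tud males and -1.91 in wild type males. In females they overlapped at 72 h alone. The part of these markers in the Pepck difference was not tested. No probe was paired with the listed germline genes vas, nos, aub, osk and bam, so the absence of the germline could not be checked on these. Germline genes outside the list were not read here.

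The probes whose 20 group means were most like those of Pepck were found among 2842 probes with values in every group. The highest Pearson r was 0.88, for CG6191, followed by 2 probes with no paired gene, DAC008A14 (0.81) and DAC027O13 (0.75), by Hsp68 (0.70), a stress-inducible heat shock protein, and by ens (0.68), which encodes the microtubule-associated protein ensconsin. These correlations are a description over 20 groups that share genotype, sex, hour and reference, among them the females on which Pepck was chosen. Within single series the sign was not always kept. With ens, r was -0.96 in wild type males and 0.81, 0.63 and 0.71 in wild type females, tud males and tud females. With Hsp68 it was -0.67 in tud females and 0.91, 0.49 and 0.80 in wild type males, wild type females and tud males. With DAC008A14 it was -0.33 in tud males and positive in the other series. CG6191 and DAC027O13 had a positive r in every series. CG6191 had a value on 59 arrays, and its log2 ratio ran from -0.38 to 0.82 in tud males and from -0.20 to 0.55 in tud females, against 1.69 to 2.67 in wild type males and 1.93 to 3.25 in wild type females. The genotypes thus did not overlap in CG6191 in either sex, and its difference was about as large in males (-2.10) as in females (-2.27). For Pepck these were -0.83 and -1.72, but Pepck was chosen on its female value, so nothing is read from that contrast. DAC008A14 also had similar differences in the sexes, -0.99 in males and -0.97 in females, but its arrays overlapped between the genotypes in both. At the other end stood DAC029H06 (r = -0.81), tadr (-0.78), DAC038I19 (-0.77), DAC016P14 (-0.74) and CG15369 (-0.73), all of them with a positive tud minus wild type mean in both sexes. Within series, r with DAC029H06 was 0.52 in tud males and 0.53 in tud females, against -0.59 and -0.10 in wild type males and females. Signs were also mixed for CG15369, and r was negative in every series for tadr, DAC038I19 and DAC016P14.

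**Figure D5:**
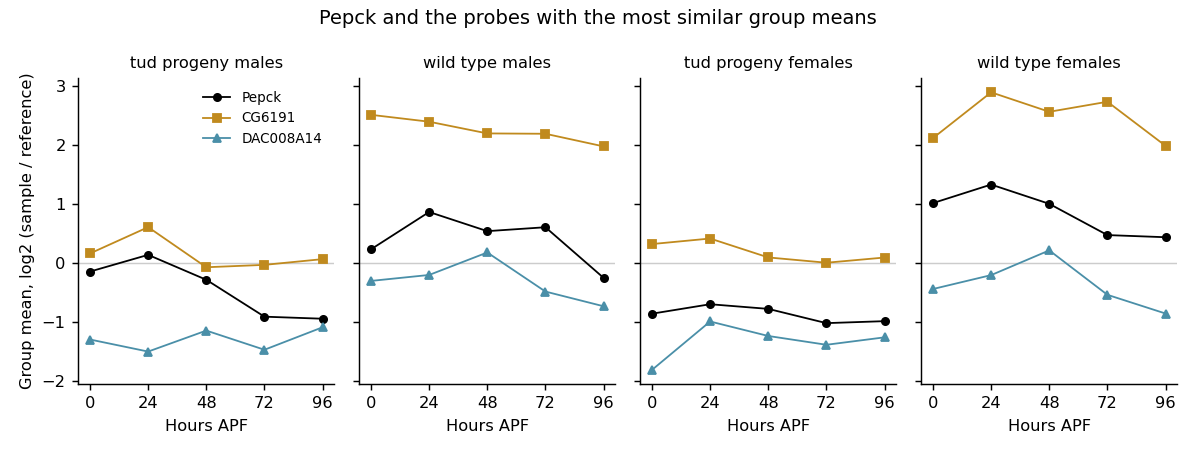
Group means (y axis, log2 ratio of sample to reference) against hours after puparium formation (x axis) for Pepck (circles), CG6191 (squares) and the unnamed probe DAC008A14 (triangles), in tud males, wild type males, tud females and wild type females from left to right. All 3 are lower in tud progeny, and Pepck alone of the 3 is lower in tud females than in tud males at every hour. Pepck was chosen on the female arrays, and its tud male and tud female arrays overlap at 72 and 96 h.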

How the data were processed

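Global loess-normalized log2 ratios of sample to reference were used as the authors deposited them. The authors had discarded array elements marked on inspection or with too few pixels above background in both channels. No background correction or scaling between arrays is given in the sources used here, and the base of the logarithm was taken as that of the authors' software, limma. The labels and the published methods disagree on which dye carried the sample, so the direction was checked on roX1, an RNA of males: its mean was 1.24 in tud males and -5.66 in tud females, and 1.12 in wild type males and -3.93 in wild type females. Tud female 48 h replicates 1 and 2 carry characteristics that disagree with their titles and were kept by title.

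Of 15776 rows, 32 controls were left out and 12342 probes had a value, between 3954 and 10236 per array. Array medians ran from -0.03 to 0.32. Replicate arrays correlated at 0.69 or more (median r = 0.90), and none were identical. Group means of all 60 arrays were fitted with limma 3.58.1 in R 4.3.3 with variances moderated by empirical Bayes, after the fit was tested on simulated data. A probe was tested when each group compared had at least 2 of 3 values. P-values were adjusted by Benjamini-Hochberg over all probes tested, at the study's level of 0.15. The residual SD of Pepck was 0.29, against a median of 0.29 over probes. Figures used Python 3.11.15 and matplotlib 3.10.9.

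The gene, the pathway list and the tests were chosen with earlier results of these data known. Named genes were, for each list, the 2 to 4 members with the largest mean genotype difference in either sex, and the 5 probes most like and 5 most unlike Pepck. Fbp1, outside that rule, was named after its values were seen. Tests of time within the female series had also been planned and were replaced by descriptions, because those arrays entered the choice of the probe. Names came from the study's gene lists, which pair 2357 probes with a gene, 2222 of them matched to RefSeq. The authors' own comparisons in those lists were not used.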

Additional observations from a re-analysis of the deposited data

Results flagged for a closer look

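The genotype difference of Pepck in males was drawn to attention because it differed between time points by the test of the change itself, with a range of 1.14 on the log2 scale between 0 h (-0.38) and 72 h (-1.51), and a limma adjusted p of 0.0699 that was lost without either of 2 arrays at 72 h.

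The sex difference of Pepck was drawn to attention because its sign differed between the genotypes at 0 and 24 h. At both hours the male and female arrays did not overlap in either genotype. At 0 h the male minus female difference was 0.71 in tud progeny and -0.78 in wild type. At 24 h it was 0.84 in tud progeny and -0.46 in wild type, where the median over all probes was -0.24. This difference between the genotypes was not tested, since the female arrays had been used to choose the probe.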

How the results depend on the processing

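The male genotype difference of Pepck kept its direction and its call under all 12 alternatives, between -1.07 and -0.83, and with each array left out, between -0.87 and -0.78. Of the alternatives, only median centring, quantile normalization and array weights could move the value itself. The rest, among them the exact permutation, kept that difference and bore on the call alone. The female difference stayed between -1.83 and -1.68, and the mean sex differences kept their signs. At the 5 hours the male calls held under every alternative, and the uncalled 0 h difference was -0.076 with array weights. The wild type male 0 to 24 h step was 1.05 there. The change of the male difference over time (1.14) missed a threshold of 0.05 (adjusted p = 0.0699) and ranged from 0.89 to 1.34 with 1 array left out. The range over time in tud females was 0.73 under quantile normalization, against 0.32. Among the steps, signs turned under median centring at wild type female 72 to 96 h (0.022), tud male 72 to 96 h (0.0015) and tud female 24 to 48 h (0.070), under quantile normalization at tud male 72 to 96 h (0.37), under array weights at wild type female 72 to 96 h (0.054), and at tud female 48 to 72 h with that group given by replicate 3 alone (0.0086). The tud male step was not called, and the female steps were not tested. With 1 array left out, steps that turned sign ranged from -0.16 to 0.27 (wild type male 48 to 72 h), -0.22 to 0.17 (wild type female 72 to 96 h), -0.28 to 0.15 (tud male 72 to 96 h), -0.062 to 0.29 (tud female 0 to 24 h), -0.16 to 0.046 (tud female 24 to 48 h) and -0.18 to 0.33 (tud female 72 to 96 h). In a fit of the compared arrays alone 2 further tud male steps passed, 0 to 24 h (adjusted p = 0.15) and 24 to 48 h (adjusted p = 0.113). The tud male 24 to 48 h step also passed with array weights (adjusted p = 0.0557) and Storey's q (0.0869), and the wild type male 24 to 48 h step with array weights (adjusted p = 0.0672). Gpo1 in males turned to 0.017 under quantile normalization. The cause of these changes was not tested.

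Replicates share numbers, but the deviations of same-numbered tud and wild type male arrays had a median r of 0.05 over 15 pairs. It ran from -0.44 to 0.58 and was above 0.1 in 4 pairs, so the numbers were not taken as pairs. With the replicate block the male difference was -0.83 and no call of Pepck changed. Requiring all 3 values left 1088 probes called in males in place of 2885, 763 in females in place of 1850, and 1799, 1728, 2178 and 2000 in the time tests of tud males, tud females, wild type males and wild type females in place of 3526, 3436, 4055 and 3826. The test of the change over time called 1853 probes, 819 with all 3 values, 1180 at 0.05 and 2867 by Storey's q, which called 2799 for genotype in females. Metabolic genes called higher in males numbered 2 with all 3 values and 8 by Storey's q in place of 5. In females 6 were called higher with array weights or Storey's q in place of 3, and 4 lower with all 3 values in place of 7. Of the 5 probes most like Pepck, 4 were shared by Spearman's rho and 5 after centring, and of the 5 most unlike it 3 and 4. Pearson's r over the 60 arrays used the 741 other probes with a value on every array, which held 3 of the 5 most like, all shared, and 0 of the 5 most unlike, so 3 and 0 were the most it could share.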
